A study of Chlorocebus sabaeus with 10 samples.

Results

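The genes described here encode enzymes of the urea cycle and of glutamine and aspartate metabolism, measured in liver biopsies of vervet monkeys (Chlorocebus sabaeus), an Old World primate, fed a high fructose (HFr) diet or chow. They were chosen by gene symbol from a fixed list of 10 enzymes, CPS1, OTC, ASS1, ASL, ARG1, NAGS, GLS2, GLUL, GOT1 and GOT2, with the transcript of the highest mean count standing for each gene. Of the 10, 9 were analysed, each with a single transcript among the 28078 transcripts of the table. ASS1, which makes argininosuccinate, was not analysed here. All 9 genes passed the filter on low counts and were among the 7948 transcripts tested. The HFr group was 5 females fed the high fructose diet for 6 weeks, and the chow group was 5 females kept on chow for the same time. All animals had been on chow before the study, and they were assigned to the diets so as to balance age and body weight. The mean age reported in the paper was still higher in the HFr group, without a significant difference. Each animal gave 1 library of polyadenylated liver RNA.

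The urea cycle disposes of ammonia, which is toxic to the brain, and in mammals its full set of enzymes works in the liver. Carbamoyl phosphate is made from ammonia and joined to ornithine inside the mitochondria, and aspartate brings in the remaining nitrogen in the cytosol, where arginine is built and then split into urea and ornithine. Hepatocytes near the portal vein express the cycle and glutaminase, whereas those around the central vein express glutamine synthetase, which binds the ammonia that escaped. The aspartate aminotransferases, one in the cytosol and one in the mitochondria, supply aspartate and also serve the malate-aspartate shuttle and gluconeogenesis. Fructose metabolism draws on several of the same hepatic pathways, and the comparison asks whether the diet altered the liver transcriptome.

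Total estimated counts per animal were between 2977282 and 4992505, and transcripts of the mitochondrial genome took from 34.7% to 73.6% of them, which left between 864571 and 2657103 counts for nuclear genes. The 9 enzyme genes together made up 0.427% ± 0.0724 (SD, n = 5) of the nuclear counts in HFr animals, and 0.426% ± 0.0724 in chow animals. Hepatocyte markers were abundant in every animal, with a summed level over 9 genes between 49372 and 75546 normalized counts on the HFr diet and between 40072 and 80016 on chow. The level of 7 skeletal muscle markers did not exceed 5.24 summed normalized counts in any animal, and 4 of them, MYH2, MYH7, CKM and MB, were at 0 throughout. Normalized counts are CPM values, the estimated counts relative to the size of the library after scaling with TMM factors (trimmed mean of M values). Levels of different genes are not ranked against each other, since no transcript lengths were at hand.

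No difference between the diets was detected for any of the 9 genes. The edgeR quasi-likelihood test gave 0 of the 9 an unadjusted p under 0.05, beside 4.29% of all tested transcripts (2.06% with a higher and 2.23% with a lower level in the HFr group). After Benjamini-Hochberg adjustment 0 of the 9 passed, as for all tested transcripts (0%, and 2 transcripts with DESeq2), and the smallest adjusted p among the 9 was 0.9996. DESeq2 and the equal-variance test each gave 1 of the 9, GOT2, an unadjusted p under 0.05, and limma gave none. Of all 7948 tested transcripts, DESeq2 gave 314 an unadjusted p under 0.05 and the equal-variance test 334. With limma they were 328 at pseudocount 1 and 314 at pseudocount 0.1. No tool gave any of the 9 an adjusted p under 0.05. The normalized counts of the diets overlapped for all 9 genes, beside 0.541% of tested transcripts without overlap. The fitted level was higher on the HFr diet for 6 genes and lower for 3, and the median log2 fold change was 0.12, against -0.00075 for all tested transcripts. In all 9 genes the 95% interval of the fold change lay between 0.603-fold (GOT2) and 1.996-fold (NAGS). The upper bounds depended on single animals, since NAGS had a log2 fold change of 0.53 (SE 0.33) and ASL one of 0.54 (SE 0.27) when chow replicate 1 was left out. A fit without the 3 animals with over 65% mitochondrial counts was chosen after the data were seen. It left out HFr replicate 3 and chow replicates 4 and 5. By edgeR 0 of the 9 then had an unadjusted p under 0.05, beside 348 of 8928 tested transcripts. The smaller number of animals limits what this fit could detect. In bulk tissue, fewer cells of a type and less RNA per cell cannot be told apart.

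**Figure D1:**
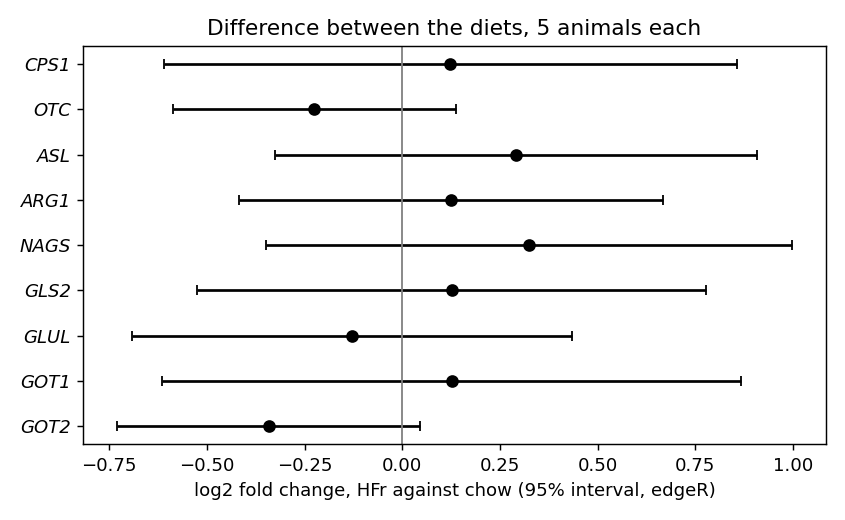
Log2 fold change (HFr against chow, horizontal axis) of each of the 9 genes (vertical axis), with points for the edgeR estimate and bars for the 95% interval from 5 animals per diet. All bars cross 0, and those of OTC (-0.59 to 0.14) and GOT2 (-0.73 to 0.05) are the shortest.

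NAGS and CPS1 open the pathway. NAGS, on chromosome 16 of ChlSab1.1 from 62390468 to 62394454 (minus strand), makes N-acetylglutamate, the obligatory activator of CPS1. Its normalized counts were 8.67, 11.0, 6.05, 19.8 and 8.31 in HFr replicates 1 to 5 and 13.0, 8.32, 8.07, 5.56 and 7.81 in chow replicates 1 to 5. HFr replicate 4 was the highest animal, and the other 9 lay within one range across both diets. On the log2 scale the difference was 0.32 (standard error, SE, 0.31) and became -0.025 without HFr replicate 4. These values rest on 11 to 89 estimated counts per animal, the lowest of the 9 genes.

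CPS1, on chromosome 10 from 96267889 to 96392207 (plus strand), encodes the mitochondrial carbamoyl phosphate synthetase that fixes ammonia. Its normalized counts were 85.2, 211, 103, 55.1 and 64.9 in HFr replicates 1 to 5 and 120, 83.7, 124, 51.5 and 96.5 in chow replicates 1 to 5. HFr replicate 2 stood above every other animal, and the lowest HFr and the lowest chow animal were at nearly the same level. The highest animal exceeded the lowest 4.10-fold, the widest range of the 9 genes. HFr animals averaged 104 ± 62.8 and chow animals 95.1 ± 29.5 (SD, n = 5 per diet), which corresponds to a log2 fold change of 0.12 (SE 0.34). It was -0.31 without HFr replicate 2 and -0.034 without chow replicate 4, so its sign rested on each of these animals.

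OTC, on the X chromosome from 35494287 to 35570846 (plus strand), encodes ornithine transcarbamylase, which joins carbamoyl phosphate to ornithine to give citrulline. HFr replicates 1 to 5 held 182, 211, 199, 242 and 230 normalized counts of OTC, and chow replicates 1 to 5 held 230, 244, 308, 223 and 238. Each HFr animal was below the average of the chow group, and the 2 highest HFr animals reached into the chow range. OTC varied little, with a 1.69-fold span from the lowest to the highest animal. HFr animals averaged 213 ± 23.9 and chow animals 249 ± 34.1 (SD, n = 5 per diet). The log2 fold change was -0.22 (SE 0.17, unadjusted p = 0.206 by edgeR), and a two-sided exact permutation test over the animals gave p = 0.0794, where 0.00794 is the smallest p that 5 against 5 allow. Chow replicate 3 was set apart at 308, and without it the log2 fold change was -0.14. The sign was the same under all 26 alternatives.

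ASL and ARG1 complete the cytosolic steps of the cycle. ASL, on chromosome 28 from 1782553 to 1802518 (plus strand), encodes argininosuccinate lyase, which releases arginine and fumarate. Its normalized counts were 106, 210, 152, 122 and 70.6 in HFr replicates 1 to 5 and 175, 97.2, 78.1, 95.5 and 93.3 in chow replicates 1 to 5. Chow replicate 1 stood well above the other chow animals, and HFr replicate 5 was the lowest of all 10. Its fold change on the log2 scale was 0.29 (SE 0.29), and leaving out 1 animal at a time moved it between 0.060 without HFr replicate 2 and 0.54 without chow replicate 1.

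ARG1, on chromosome 13 from 41971802 to 41983050 (minus strand), encodes liver arginase, which cleaves arginine into urea and ornithine. It had 862, 975, 725, 401 and 712 normalized counts in HFr replicates 1 to 5 and 672, 556, 680, 527 and 934 in chow replicates 1 to 5. The HFr animals held both the highest and the lowest value, and the chow range lay inside theirs. HFr animals averaged 735 ± 216 and chow animals 674 ± 161 (SD, n = 5 per diet), a log2 fold change of 0.12 (SE 0.25). Leaving out 1 animal moved it between 0.0031 without HFr replicate 2 and 0.27 without HFr replicate 4. ARG1 is also expressed in some myeloid cells. The summed level of 13 macrophage and other myeloid markers was between 116 and 290 normalized counts on the HFr diet and between 75.8 and 284 on chow, with ELANE at 0 in all animals, and its part in the ARG1 level was not tested.

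The glutamine enzymes act on the 2 sides of the lobule. GLS2, on chromosome 11 from 52427919 to 52448464 (minus strand), is the liver type glutaminase that releases ammonia from glutamine in periportal cells. HFr replicates 1 to 5 held 81.8, 132, 122, 283 and 147 normalized counts of GLS2, and chow replicates 1 to 5 held 156, 207, 116, 94.0 and 127. HFr replicate 4 was the highest and HFr replicate 1 the lowest of all animals, 3.46-fold apart. The log2 fold change of 0.13 (SE 0.30) became -0.22 without HFr replicate 4.

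GLUL, on chromosome 25 from 46989205 to 47000556 (plus strand), encodes glutamine synthetase, the classical marker of the hepatocytes around the central vein. Its normalized counts were 155, 121, 176, 245 and 297 in HFr replicates 1 to 5 and 179, 293, 272, 182 and 161 in chow replicates 1 to 5. On each diet 2 animals stood apart above the other 3, and the highest and lowest animals were both on the HFr diet. HFr animals averaged 199 ± 71.0 and chow animals 217 ± 60.3 (SD, n = 5 per diet), a log2 fold change of -0.13 (SE 0.26). It became 0.0070 without HFr replicate 2 and 0.0024 without chow replicate 2.

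GOT1 and GOT2 catalyse the same transamination between aspartate and 2-oxoglutarate in the cytosol and in the mitochondria, respectively. GOT1, on chromosome 9 from 92462782 to 92488311 (minus strand), had 146, 192, 150, 77.5 and 48.9 normalized counts in HFr replicates 1 to 5 and 158, 68.3, 100, 81.4 and 154 in chow replicates 1 to 5. The animals spread over a 3.94-fold range, with high and low animals on both diets. HFr animals averaged 123 ± 58.3 and chow animals 112 ± 41.5 (SD, n = 5 per diet), a log2 fold change of 0.13 (SE 0.35). It became -0.096 without HFr replicate 2 and -0.0097 without chow replicate 2.

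GOT2, on chromosome 5 from 44645602 to 44670919 (minus strand), had 178, 171, 130, 158 and 188 normalized counts in HFr replicates 1 to 5 and 170, 261, 188, 231 and 195 in chow replicates 1 to 5. The HFr animals all lay below the chow average, chow replicate 1 lay among the HFr animals, and the highest HFr animal was level with chow replicate 3. HFr animals averaged 165 ± 22.3 and chow animals 209 ± 36.7 (SD, n = 5 per diet), with 322 to 1191 estimated counts per animal. The log2 fold change was -0.34 (SE 0.18, unadjusted p = 0.0798, adjusted p = 0.9996 by edgeR), the smallest unadjusted p of the 9 genes. A two-sided exact permutation test over the animals gave p = 0.0556. The unadjusted p was under 0.05 with 3 alternatives, DESeq2 (0.0447), the equal-variance test (0.0482) and the fit without chow replicate 1 (0.0471). The adjusted p of GOT2 lay between 0.838 and 1 over all 26 alternatives, and its direction was the same in each of them.

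**Figure D2:**
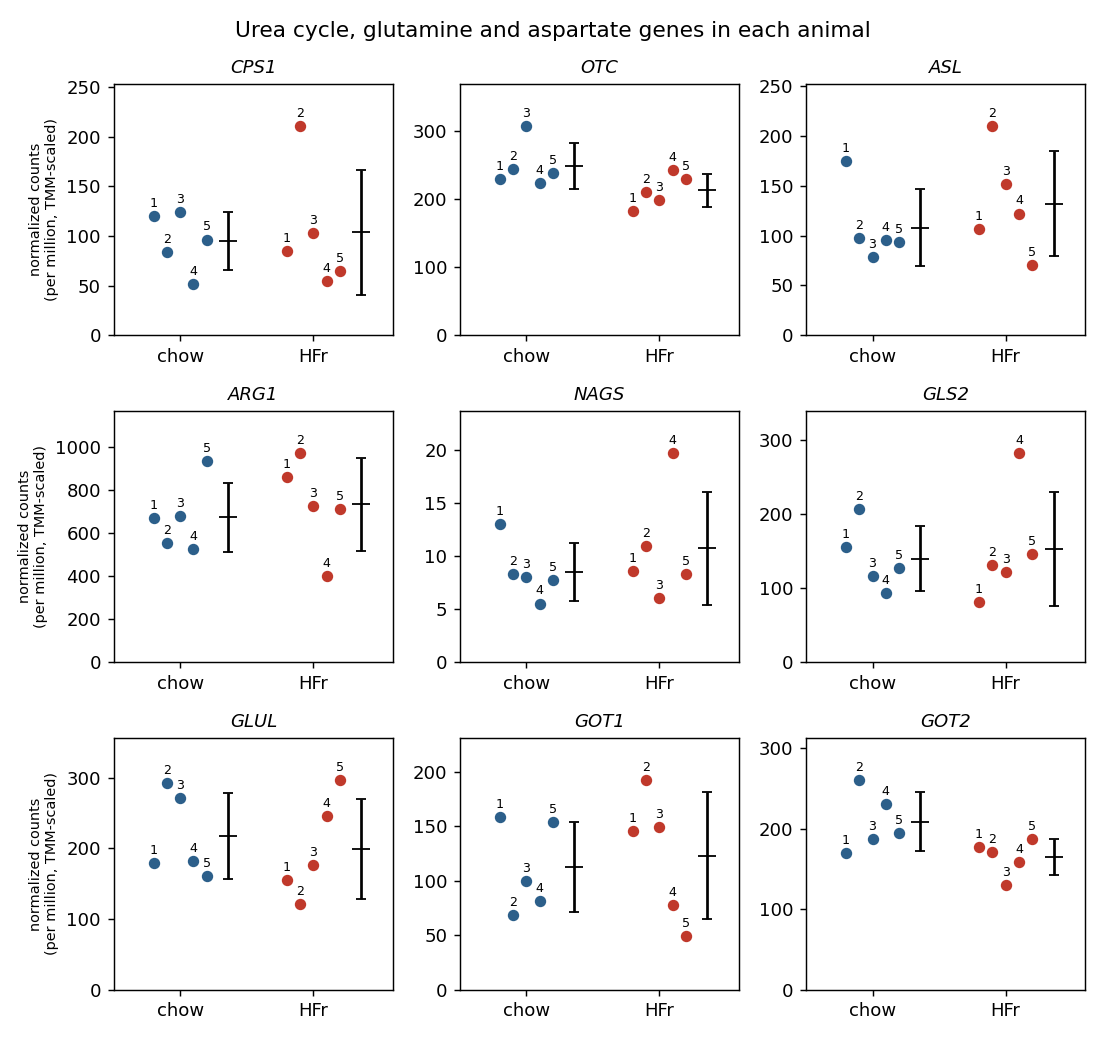
Normalized counts (vertical axis, TMM-scaled as in the text, starting at 0) of the 9 genes in each chow (blue) and HFr (red) animal, numbered by replicate, with bars for the mean and SD of 5 animals. The diets overlap in every panel, OTC and GOT2 have the tightest groups, and CPS1, GLS2 and NAGS each have 1 HFr animal far above the rest.

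How much the 9 genes varied between animals of the same diet differed from gene to gene. The pooled SD of the log2 normalized counts (pseudocount 1) within a diet was 0.17 for OTC and 0.23 for GOT2, at percentiles 3.33 and 11.9 of the tested transcripts. It was 0.68 for GOT1 and 0.64 for CPS1, at percentiles 91.7 and 89.6. The median over the 9 genes was 0.50, and over all tested transcripts it was 0.36. The values of GOT1 and CPS1 rest on at least 161 and 102 estimated counts per animal, and those of OTC and GOT2 on at least 442 and 322. The percentiles are over all tested transcripts and are not matched for level, and low counts add to the SD.

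Within an animal, the ratio of 2 genes does not depend on how the library was scaled. The ratio of GOT2 to GOT1 counts was between 0.868 and 3.83 in the HFr animals and between 1.07 and 3.81 in the chow animals. Its log2 value was 0.57 ± 0.91 in HFr and 0.96 ± 0.77 in chow animals (SD, n = 5 per diet, two-sided exact permutation p = 0.492). The ratio of GLS2 to GLUL counts was between 0.495 and 1.15 on the HFr diet and between 0.429 and 0.871 on chow. The difference of its log2 values, 0.21, was within the spread between animals (two-sided exact permutation p = 0.524, and 0.524 for both ratios after adjustment over the 2). Leaving out 1 animal moved it between 0.055 without HFr replicate 4 and 0.36 without HFr replicate 5, and moved the difference for GOT2 to GOT1, -0.38, between -0.72 without HFr replicate 5 and -0.14 without chow replicate 2.

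Across the 10 animals, after the mean of each diet was removed, the clearest opposition was between GLUL and GOT1. Their Pearson correlation was -0.88 (permutation p = 0.00536) and their Spearman correlation was -0.89 (permutation p = 0.00321). Pearson's r was -0.76 without the 2 animals farthest from the median of GLUL. After adjustment over the 36 pairs of genes p was 0.193 for Pearson's r and 0.116 for Spearman's rho, so the relation did not pass the correction. HFr replicates 4 and 5 and chow replicates 2 and 3 had the 4 highest GLUL values, with GOT1 at 77.5, 48.9, 68.3 and 100. The 3 animals with the lowest GLUL, HFr replicates 2 and 1 and chow replicate 5, had GOT1 at 192, 146 and 154. In between, HFr replicate 3 and chow replicate 1 had GOT1 at 150 and 158. Chow replicate 4 went the other way, with GLUL at 182 and GOT1 at 81.4.

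CPS1, ASL and ARG1 varied in the same direction as GOT1. The correlation of GOT1 was 0.73 with CPS1 (permutation p = 0.0332), 0.73 with ASL (permutation p = 0.0291) and 0.64 with ARG1 (permutation p = 0.0753). The corresponding Spearman values were 0.76 (permutation p = 0.0242), 0.59 (permutation p = 0.112) and 0.71 (permutation p = 0.0385). Without the 2 animals farthest from the median of the first gene of the pair, Pearson's r was 0.67, 0.58 and 0.65, in the same order. NAGS and GLS2 had a correlation of 0.72 (permutation p = 0.0484) and a Spearman correlation of 0.65 (permutation p = 0.0661). Their Pearson correlation was 0.39 without the 2 animals farthest from the median of NAGS, so it rested on those. An unadjusted permutation p under 0.05 was found for 4 of the 36 pairs by Pearson's r, and none was under 0.05 after adjustment, with an adjusted p of 0.323 for CPS1 with GOT1, ASL with GOT1 and NAGS with GLS2, and of 0.334 for ARG1 with GOT1. The values of a pair come from the same libraries and share their depth and normalization.

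**Figure D3:**
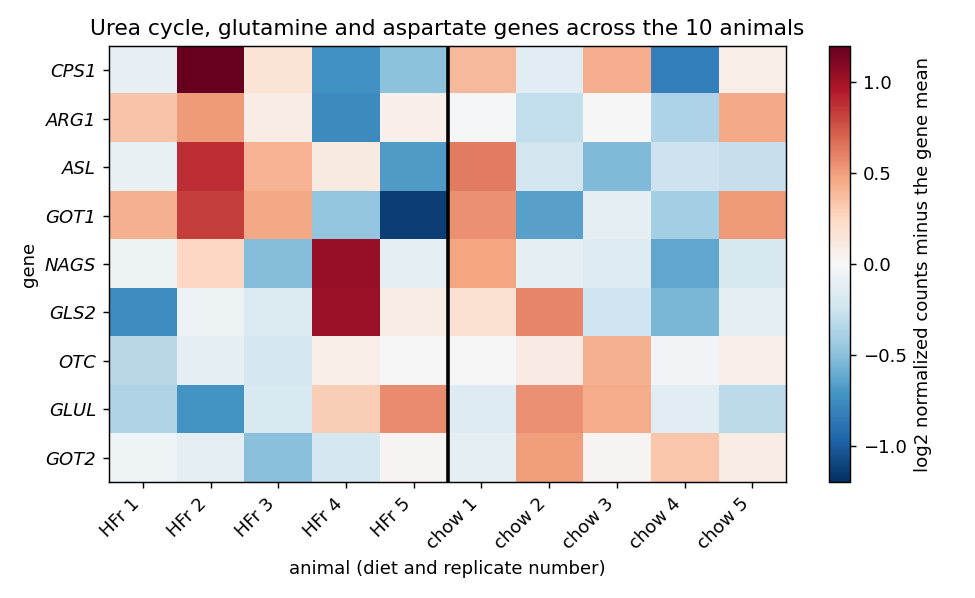
Log2 normalized counts (pseudocount 1) minus the mean of the gene, in color, for the 9 genes (rows) in the 10 animals (columns, HFr left and chow right of the line). HFr replicate 2 is high for CPS1, ARG1, ASL and GOT1 and low for GLUL, and HFr replicate 4 is high for NAGS and GLS2, while the rows of OTC and GOT2 are pale.

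**Figure D4:**
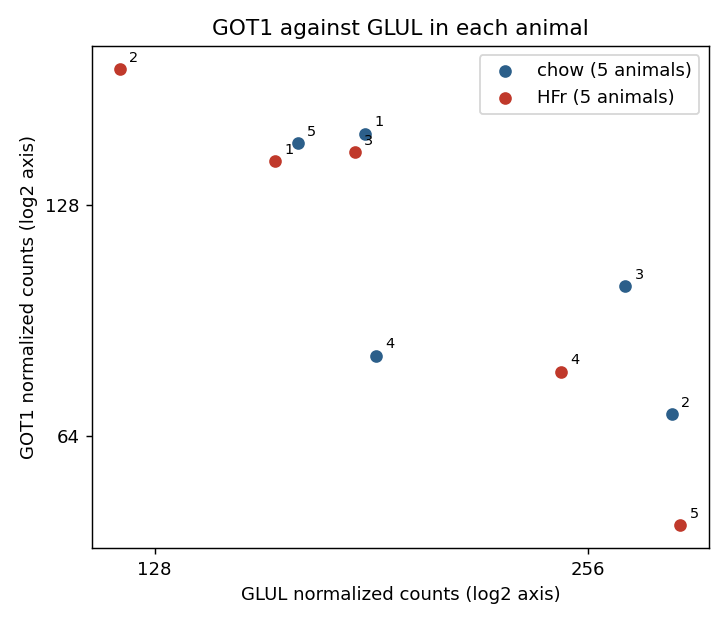
GOT1 against GLUL in normalized counts (both log2 axes), with 1 point for each of the 10 animals, colored by diet and numbered by replicate. Animals of both diets run from upper left to lower right (r = -0.88 after removal of the diet means), with HFr replicate 2 at 121 for GLUL and 192 for GOT1 and HFr replicate 5 at 297 and 48.9.

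The mitochondrial share of the counts, which differed widely between libraries, was set beside each gene. Over the 10 animals its Pearson correlation with the log2 level ranged from -0.43 for GLUL to 0.28 for GOT1, with adjusted permutation p-values over the 9 genes from 0.636 to 0.822. The Spearman correlations of these 2 genes were -0.27 (permutation p = 0.446) and 0.10 (permutation p = 0.783), against Pearson permutation p-values of 0.207 and 0.424. Without the 2 animals with the most extreme mitochondrial share, Pearson's r was -0.78 for GLUL and 0.42 for GOT1. The labels give no sequencing batch.

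The genes whose levels over the 10 animals were most like those of 3 of the enzymes were found by Pearson correlation of the log2 normalized counts among 7170 other tested transcripts with a symbol, as a description without a test. For GLUL they were ANGPTL8 (r = 0.97), a hepatic regulator of plasma triglycerides that feeding and insulin induce, PPP1R3C (0.96), a glycogen-targeting subunit of protein phosphatase 1, and NELFCD (0.94). ANGPTL8 had 3.39, 2.92, 8.07, 28.9 and 55.4 normalized counts in HFr replicates 1 to 5 and 6.40, 49.7, 51.5, 9.10 and 3.68 in chow replicates 1 to 5. The same 4 animals that were highest for GLUL were highest for ANGPTL8, 2 on each diet. PPP1R3C was at 46.2 and 74.4 in HFr replicates 4 and 5 and at 55.0 and 118 in chow replicates 2 and 3, and between 6.28 and 21.9 in the other 6 animals.

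For CPS1 the closest genes were USP28 (r = 0.91), a deubiquitinase, B4GALT5 (0.91), a galactosyltransferase, and EEF1A1 (0.91), the translation elongation factor, whose reads may be shared with near-identical copies. For GOT2 they were HARS (0.92), the cytosolic histidyl-tRNA synthetase, RABL3 (0.90) and MMAA (0.87), a mitochondrial protein of cobalamin metabolism. USP28 lay between 10.4 and 15.7 normalized counts and HARS between 13.3 and 22.1 in all 10 animals. The genes given for CPS1, GOT2 and GLUL were picked as the highest of 7170 correlations over 10 animals. Such a choice by itself yields high values of r, and how high was not tested.

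Genes that work beside the 9 enzymes were taken from lists written from general knowledge, with earlier results of these data known. Of 117 listed gene symbols (G6PC and G6PC1 name the same gene), 80 were tested. Of these, 38 had a higher and 42 a lower fitted level in the HFr group. By edgeR 2 of the 80 had an unadjusted p under 0.05 (beside 4.29% of all tested transcripts), both lower, and 0 passed adjustment. DESeq2 gave 3 under an unadjusted 0.05, beside 314 of all 7948 tested transcripts. Leaving out 1 animal moved the count from 2 to between 1 without HFr replicate 2 and 7 without HFr replicate 5. It was 6 without HFr replicate 3 and 4 without chow replicate 4. Over all tested transcripts the counts in these fits were 260 of 8070, 400 of 8107, 391 of 8278 and 408 of 8302, in the same order.

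Among partners and transporters of the urea cycle, 3 of 9 genes were tested and none had an unadjusted p under 0.05 by edgeR. AQP9, a channel that passes urea and glycerol, had 282 ± 49.8 normalized counts in HFr and 361 ± 86.1 in chow animals (SD, n = 5 per diet, log2 fold change -0.36, SE 0.21). SLC25A13, the aspartate-glutamate carrier citrin, stood at 124 ± 30.2 and 129 ± 21.2 (SD, n = 5 each). SLC25A15, which exchanges ornithine and citrulline across the inner mitochondrial membrane, stood at 8.39 ± 4.14 and 6.35 ± 3.01 (SD, n = 5 each).

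Of 16 genes of ammonia, glutamine and glutamate handling, 10 were tested, 8 were higher and none had an unadjusted p under 0.05 by edgeR, with a median log2 fold change of 0.08. The amino acid transporters SLC38A4 and SLC38A2 had log2 fold changes of 0.18 (SE 0.24) and 0.089 (SE 0.44). SLC38A4 was at 0.058 if HFr replicate 2 was left out and at 0.31 if HFr replicate 4 was, and SLC38A2 turned direction with 1 animal left out (-0.33 to 0.66). SLC25A18, a mitochondrial glutamate carrier, had 0.17 (SE 0.31).

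Of 17 genes of aspartate and alanine metabolism and the malate-aspartate shuttle, 13 were tested, 5 higher and 8 lower, with a median log2 fold change of -0.09. ASPA, which encodes aspartoacylase, the enzyme that releases aspartate from N-acetylaspartate, had the lowest unadjusted p of all listed genes. HFr replicates 1 to 5 held 5.65, 1.57, 4.03, 1.999 and 7.52 normalized counts of ASPA, and chow replicates 1 to 5 held 8.23, 11.6, 10.5, 22.7 and 6.89. HFr replicate 5 was above chow replicate 5 and the diets were otherwise apart. The log2 fold change was -1.50 (SE 0.43, unadjusted p = 0.00335, adjusted p = 0.9996 by edgeR), and a two-sided exact permutation test gave p = 0.0159. The unadjusted p of ASPA was under 0.05 with all 16 alternatives run for it, while its adjusted p lay between 0.498 and 1. These values rest on 7 to 57 estimated counts per animal. ASPA lies on chromosome 16 from 2982459 to 3009886.

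GPT, the cytosolic alanine aminotransferase, had 145 ± 45.3 normalized counts in HFr and 112 ± 27.5 in chow animals (SD, n = 5 per diet), a log2 fold change of 0.37 (SE 0.24) that was 0.17 without HFr replicate 4 and 0.22 without chow replicate 5. NIT2, an omega-amidase that acts on products of glutamine and asparagine transamination, stood at 267 ± 39.6 and 303 ± 75.2 (SD, n = 5 each). The diets overlapped for both genes, and the unadjusted p by edgeR was 0.154 for GPT and 0.408 for NIT2.

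Of 22 genes of the ornithine, proline and polyamine branch, 16 were tested, 9 higher and 7 lower, with a median log2 fold change of 0.12. AMD1, the S-adenosylmethionine decarboxylase of polyamine synthesis, had 26.8, 18.4, 29.9, 13.3 and 21.4 normalized counts in HFr replicates 1 to 5 and 35.9, 27.2, 30.8, 23.2 and 36.8 in chow replicates 1 to 5. The 2 groups overlapped, with 3 HFr animals below the lowest chow animal. Its log2 fold change was -0.51 (SE 0.22, unadjusted p = 0.0378, adjusted p = 0.9996 by edgeR), and the unadjusted p was 0.05 or more with 7 of 16 alternatives. The two-sided exact permutation test gave AMD1 p = 0.0556.

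OAT, ornithine aminotransferase, connects the urea cycle amino acid ornithine with glutamate and is enriched around the central vein. It had 363, 322, 366, 201 and 77.4 normalized counts in HFr replicates 1 to 5 and 1167, 161, 384, 259 and 750 in chow replicates 1 to 5. Chow replicates 1 and 5 stood far above the other 8 animals, which overlapped across the diets. On the log2 scale the difference was -1.03 (SE 0.51, unadjusted p = 0.0595 by edgeR) and -0.55 without chow replicate 1, and 4 of the 16 alternatives gave an unadjusted p under 0.05. The two-sided exact permutation test gave OAT p = 0.230. SAT1 and PRODH2 of the same branch had log2 fold changes of -0.070 (SE 0.18) and 0.25 (SE 0.36).

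Because GLS2 and the cycle mark the periportal and GLUL the pericentral hepatocytes, markers of both zones were compared. Of 16 periportal marker symbols, with G6PC and G6PC1 naming the same gene, 13 were tested, 8 higher and 5 lower on the HFr diet. Their median log2 fold change was 0.19. Of 23 pericentral markers 14 were tested, 1 higher and 13 lower, with a median of -0.20, where 49.8% of all tested transcripts were higher. None of the 27 had an unadjusted p under 0.05 by edgeR, and markers of a zone are not independent of each other. RGN, the pericentral calcium-binding protein regucalcin, named after its values were seen, averaged 41.4 ± 7.33 in HFr and 53.1 ± 5.33 in chow animals (SD, n = 5 per diet). The diets overlapped, and its unadjusted p was 0.0501 by edgeR (adjusted p = 0.9996) and 0.0159 by the two-sided exact permutation test. As RGN was picked by its values, these p-values describe it and are no test of it. CYP2E1, a pericentral cytochrome P450, had 3126 ± 836 normalized counts in HFr and 3916 ± 816 in chow animals (SD, n = 5 per diet). The glutathione transferase GSTA1 had 1174 ± 448 and 1587 ± 447 (SD, n = 5 each). Of the periportal list, PCK1 (the gluconeogenic phosphoenolpyruvate carboxykinase), ALB and PROC had log2 fold changes of -0.12, -0.18 and -0.081, each smaller than its standard error. LGR5 and RHBG, narrow markers of the cells next to the central vein, were not tested because of low counts.

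**Figure D5:**
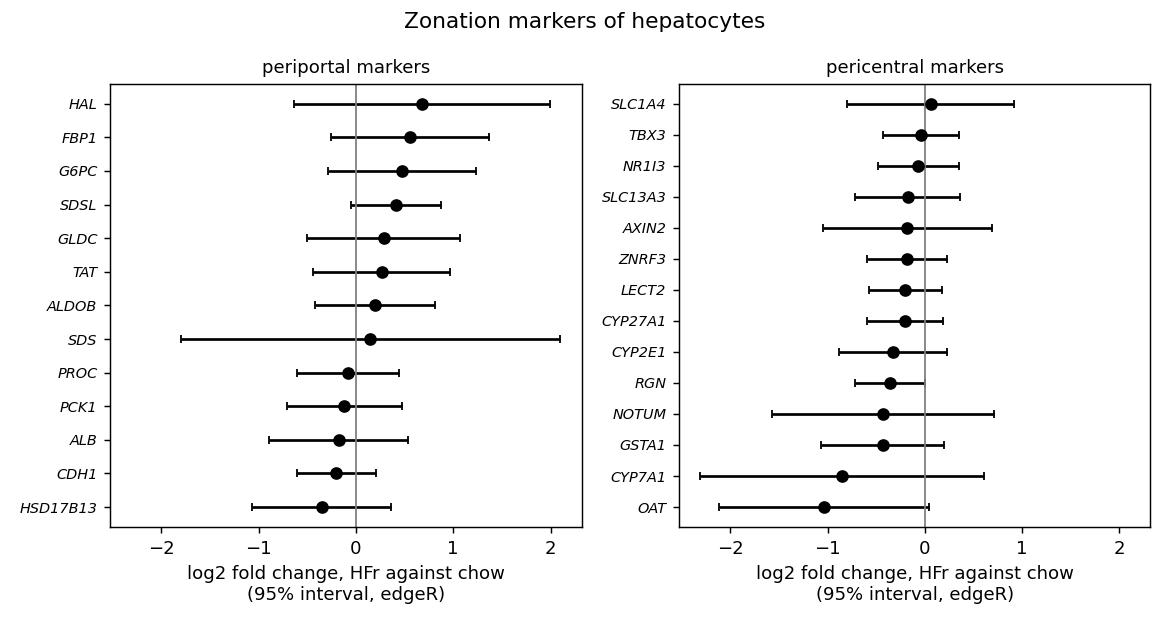
Log2 fold change (HFr against chow, horizontal axis) of the 13 tested periportal (left) and the 14 tested pericentral (right) marker genes, with the 95% interval from edgeR. Points of the periportal list lie on both sides of 0, 13 of the 14 pericentral points lie below 0, and none of these 27 genes had an unadjusted p under 0.05 by edgeR.

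A list of 21 genes held transcription factors, hormone receptors and other regulators of the urea cycle, among them the sirtuins SIRT3 and SIRT5. Of these 15 were tested, 8 higher and 7 lower, and none had an unadjusted p under 0.05 by edgeR. CREB3L3, a hepatic transcription factor named after its values were seen, averaged 4.59 ± 1.15 in HFr and 2.49 ± 1.49 in chow animals (SD, n = 5 per diet), from 1 to 29 estimated counts per animal. Its unadjusted p was 0.0545 by edgeR (adjusted p = 0.9996) and 0.0397 by the two-sided exact permutation test. As CREB3L3 was picked by its values, these p-values are no test of it. HNF4A, a nuclear receptor that maintains hepatocyte gene expression, had 196 ± 37.5 and 218 ± 53.6 normalized counts (SD, n = 5 each). GCGR, the receptor for glucagon, the hormone that induces urea cycle enzymes in fasting, had 173 ± 71.5 and 141 ± 53.0 (SD, n = 5 each). Its log2 fold change, 0.30, dropped to 0.010 if HFr replicate 4 was left out. NR1H4, the bile acid receptor, had 125 ± 22.5 and 150 ± 19.1 (SD, n = 5 each, log2 fold change -0.27, SE 0.18).

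Among markers of other liver cells, KDR of 8 tested endothelial genes and ACTA2 of 7 tested stellate cell and fibroblast genes had an unadjusted p under 0.05 by edgeR, with log2 fold changes of 0.57 and -1.57. These were 2 of 39 tested markers, beside 4.29% of all tested transcripts, and none passed adjustment. KDR encodes a receptor for vascular endothelial growth factor and ACTA2 encodes smooth muscle actin. None of the tested cholangiocyte (2 genes), myeloid (8), lymphocyte (4) or red blood cell (1) markers did. The summed level of each list overlapped between the diets, with two-sided exact permutation p-values from 0.230 to 0.937. Their part in the levels of the enzyme genes was not tested.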

How the data were processed

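Liver RNA of 10 animals was sequenced, 1 library each. The authors aligned 100 base paired-end reads (STAR 2.5.3a in the submitters' processing notes) to ChlSab1.1 with Ensembl release 93 and deposited estimated counts per transcript from an expectation-maximization step in Partek Flow, not normalized, of which 97.7% were whole numbers. The deposited normalized table was not used here. Coordinates are those of the count table, counted from 1 with the listed stop excluded.

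Counts were rounded, passed through edgeR's filterByExpr (at least 10 counts, 15 in total) and compared between the diets by edgeR's quasi-likelihood test with TMM normalization and diet as the only term, over all tested transcripts (R 4.3.3, edgeR 4.0.16, limma 3.58.1, DESeq2 1.42.0). The procedure was also run on counts simulated from the mean levels and the dispersion that edgeR estimated here. That run shares the assumptions of the test and cannot check them. Standard errors are the log2 fold change divided by the square root of F. Animals were separate biological replicates. Correlations between pairs of the enzyme genes used 100000 permutations within diets, with the mean of each diet removed. Those with the mitochondrial share used 100000 permutations over all 10 animals, and the diet means were kept. Those in the search for the most alike genes also kept the diet means and had no permutation. Since 1 listed gene was not analysed here, 36 and not 45 pairs were formed. The members and lists were chosen with earlier results of these data known. Genes of the lists are named if their unadjusted p was under 0.05 or if they were among the 3 with the highest mean, and every listed enzyme is named. Outside this rule, RGN and CREB3L3 were named after their values were seen, and LGR5 and RHBG as markers that were not tested. Alternatives were other tests, normalizations, filters and covariates, a replicate block, and each animal left out. After the data were seen, a fit without 3 animals with over 65% mitochondrial counts was added.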

Additional observations from a re-analysis of the deposited data

Results flagged for a closer look

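In groups of 5 animals, a value is named here if its gap to the nearest other animal exceeded 0.71 of the range of the group (Dixon's 95% critical value). Of 64 groups examined, 6 met this, and chance alone names about 1 in 20. For OTC, chow replicate 3 had 308 normalized counts and the other chow animals had 223 to 244. For ASL, chow replicate 1 had 175 and the others 78.1 to 97.2. For SLC25A15, HFr replicate 2 had 15.5 and the others 4.95 to 7.91. For SLC38A2, chow replicate 3 had 382 and the others 91.5 to 142. For NIT2, HFr replicate 3 had 199 and the others 270.5 to 296. For GCGR, HFr replicate 4 had 297 and the others 122 to 169.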

How the results depend on the processing

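Of 234 refits of the 9 enzyme genes under 26 alternatives, 221 kept the direction and the side of an unadjusted p of 0.05, 10 turned the direction and 3 brought GOT2 under 0.05. The number of the 9 genes under 0.05, 0 in the reported fit, was 1 with DESeq2 and 1 with the equal-variance test, and 0 to 1 with 1 animal left out. GLS2 was at -0.067 with voom quality weights. With 1 animal left out the log2 fold changes ranged from -0.31 to 0.28 for CPS1, -0.22 to 0.31 for GLS2, -0.32 to 0.0070 for GLUL, -0.096 to 0.33 for GOT1 and -0.025 to 0.53 for NAGS. The ranges of listed genes that turned were -0.36 to 0.027 (PCK1), -0.30 to 0.039 (PROC), -0.16 to 0.46 (PRODH2), -0.17 to 0.044 (SLC25A13), -0.024 to 0.56 (SLC25A15), -0.079 to 0.34 (SLC25A18) and -0.33 to 0.66 (SLC38A2). Without the 3 animals with over 65% mitochondrial counts, CPS1 was at -0.076, SLC38A2 at -0.17, NIT2 at 0.12 and PCK1 at 0.12. The count of listed genes under 0.05, 2 in the reported fit, was 4 with mitochondrial transcripts removed, 5 with no filter on low counts and 1 to 7 with 1 animal left out. Over all transcripts, 341 of 7948 were under an unadjusted 0.05 in the reported fit, 123 of 7948 with library size alone and 756 of 16066 with no filter. There were 314 of 7948 with DESeq2, 334 of 7948 with the equal-variance test and 371 of 8324 with mitochondrial transcripts removed. With 1 animal left out the lowest number was 260 of 8070, without HFr replicate 2. The highest was 408, of 8065 without chow replicate 2 and of 8302 without chow replicate 4. The causes were not tested. The ratios and the count of 0 correlated pairs changed no call under the alternatives run for them.

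The replicate numbers are not stated to pair animals. The correlations of same-numbered animals' deviations were between -0.29 and 0.10, and 1 of 10 animals correlated best with its own number. With a replicate block, 0 of the 9 enzyme genes and 2 of the listed genes were under 0.05, beside 271 of 7948 tested transcripts. The ratios then gave exact p-values of 0.625 and 0.688. Between 864571 and 2657103 nuclear counts per animal and 5 animals per diet limit what could be seen.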
